A study of Mus musculus with 4 samples.

Results

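Among the cell barcodes of 4 droplet single-cell libraries of mouse embryonic stem cells (mESC), 5734 of 41142 combined few molecules with a large mitochondrial share. A barcode was placed in this class when its unique molecular identifiers (UMIs, each standing for 1 captured RNA molecule) or its detected genes lay below the mean minus 1 SD of all barcodes of its library, and when more than 10% of its UMIs came from the 13 genes whose symbols begin with mt-, the protein-coding genes of the mitochondrial genome. They are called low-depth high-mt barcodes here. They numbered 969, 2064, 1106 and 1595 in libraries 1 to 4, which was 10.2%, 17.6%, 11.4% and 15.7% of the barcodes (exact 95% binomial intervals 9.56% to 10.8%, 16.9% to 18.3%, 10.8% to 12.1% and 14.98% to 16.4%).

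All cells were of the male mESC line E14tg2a.4, kept in medium with the cytokine LIF. The labels and the study's methods give different growth times before collection. The labels list 2 samples that are WT and 2 that are Srrm2 hKO. The latter carry a heterozygous truncation of Srrm2, whose product is an SR-related protein found in nuclear speckles, in the gene-trap line CG0630. A barcode carries a library number from 1 to 4 and no sample label, so no library was assigned to a genotype and no genotype comparison was made. The libraries are not replicates of a group in what follows, and no p-value was computed. All intervals cover counting error only and not the variation between cultures. Those of ratios treat every UMI as independent and do not cover the variation between barcodes of a class. They are too narrow where the UMIs per barcode vary more than random scatter.

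By way of background, mitochondrial mRNAs are made and translated inside the organelle, behind its membranes. Most other mRNAs are translated in the cytosol, whereas those for secreted and membrane proteins are bound to the endoplasmic reticulum (ER), and some long non-coding RNAs such as Malat1 stay in the nucleus. A barcode with few UMIs and a large mitochondrial share is commonly removed from single-cell data as a damaged cell. The RNAs that such barcodes still hold, other than the mitochondrial ones used to choose them, are described below.

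The values that chose the barcodes are given as a description. The limits were 8261, 6374, 7238 and 5679 UMIs and 2458, 2124, 2351 and 2039 genes in libraries 1 to 4. Most of the barcodes, 5298, lay below both limits, 425 below the UMI limit only and 11 below the gene limit only. Their median depth was 2447, 3195.5, 2917.5 and 2633 UMIs, and their median mt- share was 30.6%, 19.8%, 24.2% and 19.01%, with maxima of 89.6%, 62.4%, 83.0% and 69.3%. They are set against 3 other classes of the same library. Kept cells reached both limits with an mt- share of at most 10%. They numbered 8118, 8514, 7893 and 7464, with a median mt- share of 5.40%, 4.10%, 4.51% and 3.51%. Low-depth low-mt barcodes (389, 781, 613 and 840) and good-depth high-mt cells (59, 377, 85 and 275) met only the depth or only the mt- part of the rule. Of the barcode sequences, 160 occurred under more than 1 library number, and 36 of the 5734 low-depth high-mt barcodes carried such a sequence.

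**Figure D1:**
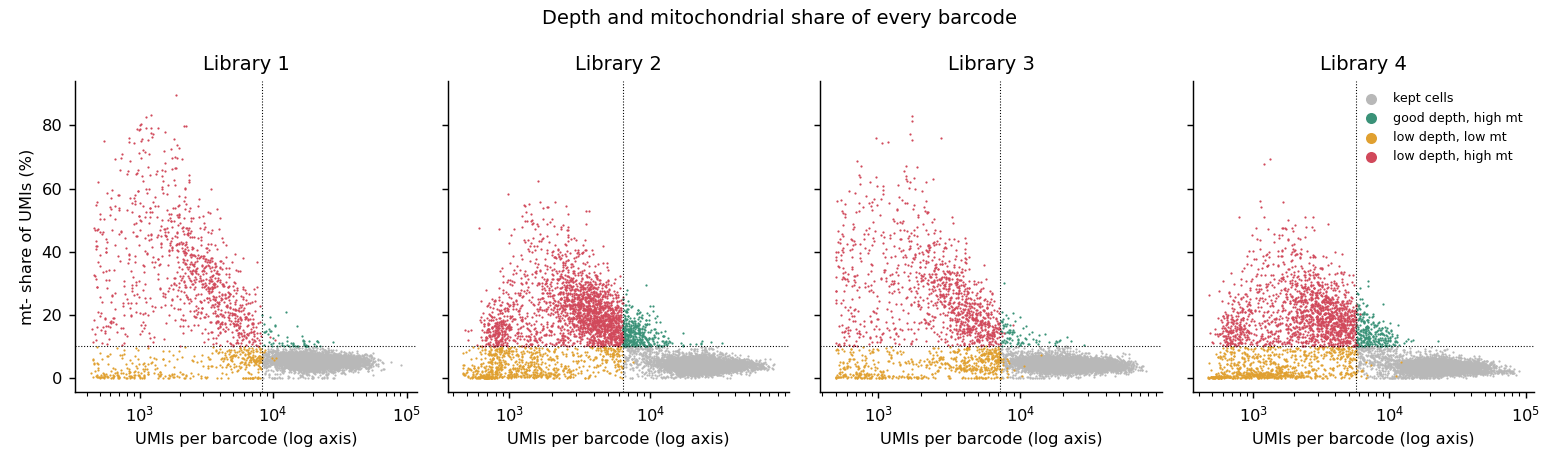
Each point is a barcode, with its UMIs on a log axis and the mt- share of its UMIs in percent, in 1 panel per library; dotted lines mark the UMI limit and the 10% limit. The low-depth high-mt barcodes (red) reach mt- shares of 62.4% to 89.6%, and they continue into the good-depth high-mt cells (green) without a gap at the UMI limit.

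Values on both sides of the 10% limit are given with no test. Among low-depth barcodes with an mt- share between 8% and 10%, which lay just outside, Malat1 took 6110, 14172, 8616 and 21154 counts per 1000000 nuclear-encoded UMIs (CPM, with mt- genes left out of the total). Among those between 10% and 12%, just inside, it took 14434, 18770, 11305 and 23336. Summed cytosolic ribosomal protein transcripts took 303418, 235745, 273739 and 213174 CPM just outside and 265861, 221722, 251500 and 215746 just inside. Across the limit Malat1 differed most in library 1 and least in library 4. The groups held 54, 136, 90 and 120 barcodes just outside and 32, 174, 60 and 164 just inside. Their median depths were 5642, 1553.5, 4130 and 2487.5 UMIs outside and 4995, 3294, 3929.5 and 2294 inside. The 2 sides were thus not matched for depth, least so in library 2.

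The mitochondrial transcripts themselves were fewer per barcode than in kept cells, but by far less than the nuclear-encoded ones. A low-depth high-mt barcode held on average 811, 661, 718 and 547 mt- UMIs in libraries 1 to 4, against 1089, 961, 957 and 808 in a kept cell, or 74.5%, 68.8%, 75.1% and 67.6%. Nuclear-encoded UMIs averaged 2061, 2509, 2342 and 2140 per barcode, against 19463, 22551, 20886 and 22511. The kept cells thus held 9.44, 8.99, 8.92 and 10.5 times as many nuclear-encoded UMIs. Depth and mt- share were used to choose the barcodes, so these values describe the class and test nothing.

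The make-up of the mt- UMIs was not used by the rule, and its differences from kept cells were small. Of the 13 genes, 5 took a larger and 6 a smaller share of the mt- UMIs in all 4 libraries, with the exact 95% interval of every ratio on the same side of 1. The 2 others, mt-Atp8 and mt-Nd4l, had intervals that included 1 in libraries 1 and 3. mt-Co3, a subunit of complex IV, was the most abundant, with 25.8%, 20.1%, 23.3% and 20.4% of the mt- UMIs, against 24.3%, 18.6%, 21.9% and 18.98% in kept cells. mt-Atp6, a subunit of ATP synthase, took 1.20, 1.12, 1.19 and 1.12 times the share it had in kept cells. mt-Co1, the catalytic core of complex IV, had ratios of 0.817, 0.781, 0.813 and 0.809. No ratio of the 13 genes lay outside 0.722 to 1.39.

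To see which nuclear-encoded RNAs remained, counts were summed over the barcodes of a class in each library and expressed as CPM of nuclear-encoded UMIs. The sums of low-depth high-mt barcodes held 1997345, 5178922, 2590332 and 3412864 nuclear-encoded UMIs. Ratios to kept cells of the same library have exact 95% intervals, and a gene was called higher or lower when its ratio was 1.5-fold or more to one side in each of the 4 libraries and every interval excluded 1. Of 5307 genes with a mean level of at least 25 CPM, 1177 (22.2%) were higher in low-depth high-mt barcodes and 168 (3.17%) were lower. The level is a mean over both classes, and 389 of the higher and 16 of the lower genes were under 25 CPM on average in the class where they were lower, so that they passed only through the other class. Of those described below with this comparison they include Clk4, Hyou1, Twnk, Nr5a2, Il6st, Krt8, Krt18, Tagln and Ciao2a. The median gene was itself higher, by 0.32, 0.18, 0.30 and 0.19 on the log2 scale in libraries 1 to 4. With levels set relative to this median gene, 683 genes (12.9%) were higher and 523 (9.85%) lower, so that the share of higher genes among the calls was 56.6% in place of 87.5%. It was 43.0% with mt- genes counted in the total and 73.7% with ribosomal protein genes and Malat1 left out of the total. No gene called in the main comparison was called in the opposite direction under any of these scalings.

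The 12 genes with the largest smallest increase were AY036118, Gm42418, Malat1, Gm26917, Nup210, Clock, Gm49504, Fut9, Lmbrd2, Ogt, Tug1 and Rnf121, and all 12 were still called higher relative to the median gene. Of these 12, 6 (Nup210, Clock, Fut9, Lmbrd2, Tug1 and Rnf121) passed the level of 25 CPM only through low-depth high-mt barcodes, with lower levels in kept cells of every library. Malat1 (chr19:5795690-5802672, minus strand, mm10), a long non-coding RNA of nuclear speckles, had the highest level of them. It took 18192, 17576, 16915 and 23510 CPM in low-depth high-mt barcodes and 4317, 4389, 4423 and 5342 in kept cells. Every library was thus higher, by 4.21-, 4.00-, 3.82- and 4.40-fold, with interval bounds from 3.79 to 4.43. In absolute terms a low-depth high-mt barcode held 44.6%, 44.6%, 42.9% and 41.8% of the Malat1 UMIs of a kept cell.

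The annotated non-coding genes AY036118 (chr17:39847113-39848035, minus strand), Gm42418 (chr17:39846958-39848788, plus strand) and Gm26917 (chr17:39843013-39846341, plus strand) overlap ribosomal RNA sequence, which is present in many copies in the genome, so the origin of their reads is uncertain. Gm42418 had 5972, 9334, 5023 and 11745 CPM against 716, 1331, 632 and 1355. AY036118, which lies on the opposite strand of Gm42418, had 343, 1251, 362 and 1305 against 19.6, 97.4, 19.6 and 99.7, an increase of 12.8- to 18.5-fold. Summed over the 3 genes, a low-depth high-mt barcode held 84.8%, 77.6%, 86.4% and 81.1% of the UMIs of a kept cell, above the shares that it held of mt- UMIs.

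Of 13 nuclear-retained RNAs tested, 10 were higher and none was lower. Besides Malat1 and Tug1 these were Meg3, Rian and Mirg of the imprinted Dlk1-Dio3 region, Kcnq1ot1, which is made antisense within Kcnq1, Neat1, the scaffold RNA of paraspeckles, and the snoRNA host genes Snhg3, Snhg11 and Snhg12. Meg3 took 973, 1494.5, 1099 and 1977 CPM against 421, 577, 480 and 709 in kept cells. Kcnq1ot1 took 464, 715, 501 and 738 against 177, 236, 170 and 220. Gas5, a snoRNA host gene whose spliced RNA reaches the cytoplasm, was also in the list and was not called, with ratios of 0.859, 1.32, 1.07 and 1.29. Whether the calls follow the place of an RNA in the cell was not tested. The summed list stood at 21285, 21738, 20335 and 28527 CPM in low-depth high-mt barcodes and 6088, 6244, 6177 and 7421 in kept cells. Most of this sum was Malat1 in both classes. Of all tested long non-coding genes, 40 of 71 (56.3%) were higher and 1 was lower, against 22.2% and 3.17% of all tested genes.

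Among 18 mRNAs for nuclear speckle and splicing proteins, 8 were higher and none was lower (Sf3b1, Clk1, Srsf11, Pnisr, Luc7l2, Clk4, Prpf4b and Son), against 22.2% of all tested genes higher. Of these 6 were also called relative to the median gene, against 12.9%. Clk1, a kinase of splicing factors, had 122, 124, 119 and 138 CPM against 54.4, 62.2, 47.4 and 51.2. Srrm2 was not called. It stood at 563, 974, 364 and 592 CPM in low-depth high-mt barcodes and at 409, 556, 249 and 368 in kept cells, which is 1.38-, 1.75-, 1.46- and 1.61-fold. Srrm2 levels in low-depth low-mt barcodes were 418, 756, 240 and 378, and in good-depth high-mt cells 420, 959, 296 and 588. Library 2 had the highest and library 3 the lowest Srrm2 level in each of the 4 classes.

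**Figure D2:**
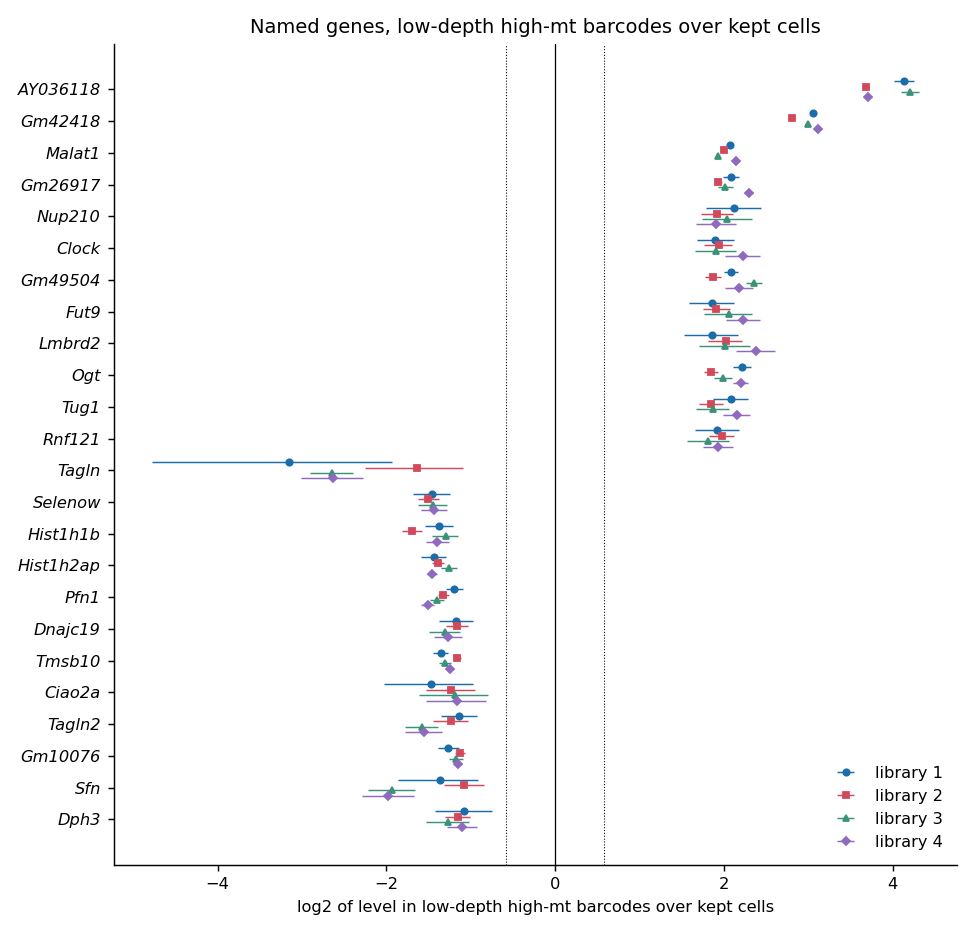
Points give the log2 ratio of a gene's level in low-depth high-mt barcodes over kept cells of the same library, with exact 95% intervals, for the 12 higher and 12 lower genes chosen by rule; dotted lines mark 1.5-fold. All points lie outside the dotted lines, and the widest interval is that of Tagln in library 1, where 5 UMIs were counted.

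Transcripts translated at the ER were examined as a second group. Of 32 tested genes for membrane and secreted proteins, 22 were higher and none was lower, against 22.2% of all tested genes higher. With the ratio taken relative to the median gene 19 were higher, against 12.9%. Fn1, which encodes the matrix protein fibronectin, took 702, 632, 528 and 544 CPM against 225, 201, 188 and 135 in kept cells. Cdh1, the adhesion molecule E-cadherin, was 2.82- to 3.33-fold higher. Epcam, another epithelial adhesion molecule, and the glucose transporter Slc2a3 were 1.81- to 2.19-fold and 2.31- to 2.61-fold higher. Bsg, also a membrane glycoprotein, was not called and had ratios of 1.27, 1.12, 1.15 and 1.09. Summed over the list the increase was 2.16-, 2.14-, 1.91- and 2.21-fold.

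ER chaperones were higher by nearly the same factor, 2.20-, 2.16-, 2.11- and 2.17-fold for the summed list, with 6 of 10 tested genes called (Hspa5, Pdia4, Calr, Hyou1, Hsp90b1 and Pdia6). All 6 were still called relative to the median gene. Of all tested genes 22.2% and 12.9% were higher on these scales. Hspa5, the main Hsp70 chaperone of the ER, took 667, 857, 660 and 820 CPM against 187, 282, 220 and 272. Of the other named genes, Nup210, a membrane glycoprotein of the nuclear pore, had 42.1, 48.7, 39.4 and 46.0 CPM against 9.66, 12.9, 9.56 and 12.2 in kept cells. Fut9, a fucosyltransferase of the Golgi, was 3.63- to 4.69-fold higher, and Rnf121, a ubiquitin ligase of the secretory pathway, 3.52- to 3.92-fold. Ogt, which attaches N-acetylglucosamine to nuclear and cytosolic proteins, and Clock, a transcription factor of the circadian oscillator, are not secretory. They were 3.59- to 4.63-fold and 3.73- to 4.66-fold higher.

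Several lists of cytosolic proteins were lower in sum. Of 84 cytosolic ribosomal protein genes tested, 29 were lower (3.17% of all tested genes were) and none was higher. On the scale relative to the median gene 51 were lower, against 9.85% of all genes, and their summed level was 216172, 205385, 211436 and 204380 CPM against 322081, 283955, 302283 and 293429. Rps20 took 4668, 3608, 4170 and 3322 CPM against 8949, 7058, 7842 and 6679, a decrease of 1.92-, 1.96-, 1.88- and 2.01-fold. The family was not uniform. Rpl18 was not called and had ratios of 1.28, 1.32, 1.29 and 1.27. Ribosomal protein genes have many processed pseudogenes, so reads that match several copies make single genes less certain.

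Translation factors (18 tested) held 1 higher gene, Eif4a2, and 2 lower genes, Eef1a1 and Btf3, and the summed list was 1.35-, 1.26-, 1.28- and 1.31-fold lower. Of all tested genes 22.2% were higher and 3.17% lower. Relative to the median gene 7 translation factors were lower and none was higher, against 9.85% and 12.9% of all genes. The glycolytic list was lower in sum by 1.17-, 1.26-, 1.21- and 1.30-fold, though only Gapdh was called lower among 13 tested genes and 2 were higher. The median ratio of the 13 genes was on both sides of 1, at 1.05, 0.837, 1.03 and 0.824 in libraries 1 to 4. Gapdh took 1664, 1238, 1389 and 1061 CPM against 3442, 2410, 2901 and 2046. Hk2 and Pfkp, which encode early enzymes of the pathway, were higher, Pfkp by 2.27- to 3.37-fold.

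Actin-binding and cytoskeletal transcripts were lower as well, with 6 of 11 genes called (Tmsb10, Pfn1, Actg1, Tuba1c, Cfl1 and Tmsb4x) and none higher, against 3.17% of all tested genes lower. Pfn1, which binds actin monomers, had 423, 392, 492 and 406 CPM against 967, 981, 1295 and 1156. Actg1, a cytoplasmic actin, was 2.00-, 2.25-, 2.89- and 2.61-fold lower, whereas Actb, the other cytoplasmic actin, was not called, with ratios of 0.892, 0.769, 0.831 and 0.689. Replication-dependent histone transcripts, most of which lack a poly(A) tail, were 1.94-, 2.07-, 1.85- and 2.06-fold lower in sum, with Hist1h1b, Hist1h1e and Hist1h2ap called among 9 tested and 5 called relative to the median gene. Of all tested genes 3.17% and 9.85% were lower on these scales. The histone genes share sequence closely, so reads may be split between them. Other named lower genes were Selenow, a small selenoprotein (2.71- to 2.83-fold), Dnajc19, a co-chaperone of mitochondrial import (2.25- to 2.48-fold), Ciao2a (2.23- to 2.78-fold), Dph3 (2.11- to 2.41-fold) and Gm10076 (2.19- to 2.40-fold). Tagln2 was 2.20- to 2.99-fold and Sfn, a 14-3-3 protein of epithelia, 2.11- to 3.93-fold lower.

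**Figure D3:**
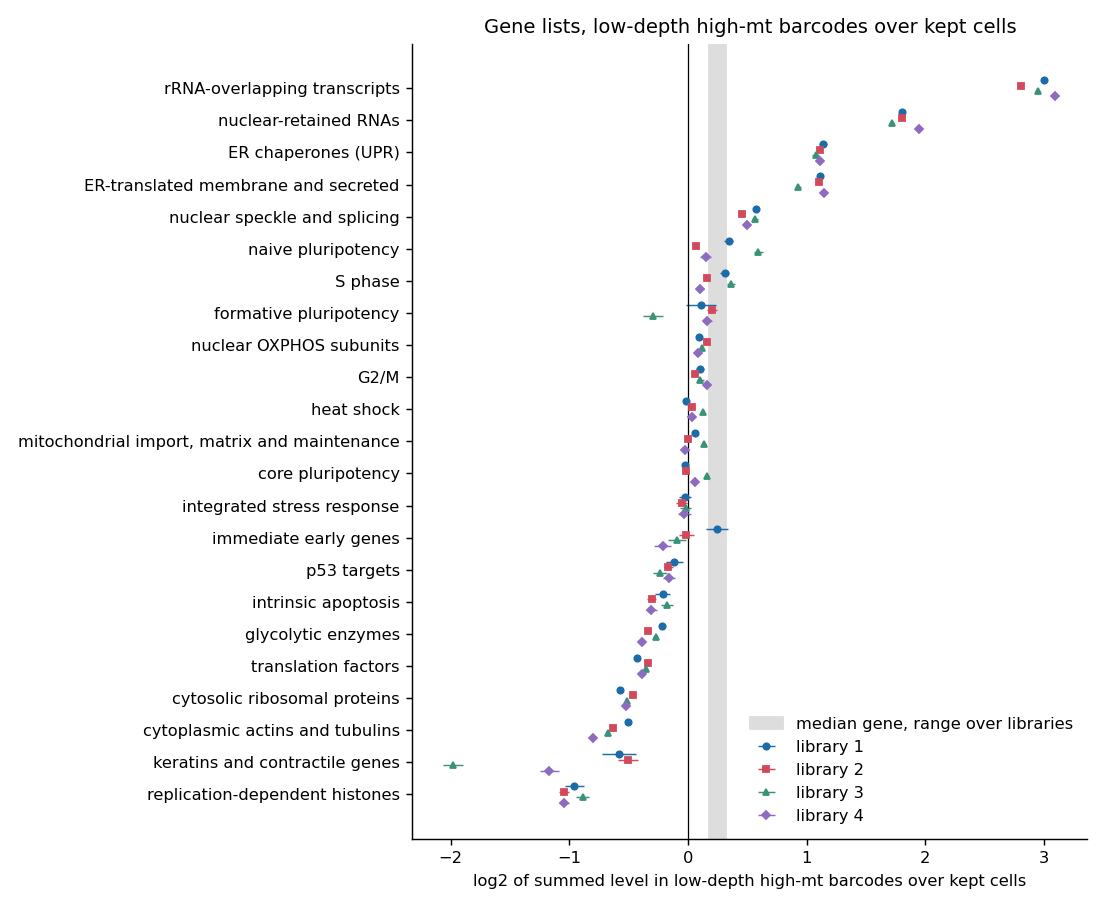
Points give the log2 ratio of the summed level of each gene list in low-depth high-mt barcodes over kept cells, per library with exact 95% intervals; the grey band spans the log2 ratio of the median gene in the 4 libraries (0.18 to 0.32). Nuclear and ER lists lie to the right of the band and ribosomal, actin, keratin and histone lists to the left of 0.

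The ratios also varied with transcript length. Among 5151 tested coding genes outside the ribosomal list, those whose longest annotated transcript had fewer than 1000 bases showed a median ratio of 0.814, 0.831, 0.805 and 0.786 in libraries 1 to 4, with 9 of 284 higher and 21 lower. Those with at least 2000 but under 4000 bases showed 1.19, 1.08, 1.19 and 1.07, with 301 of 1981 higher and 41 lower. Those with 8000 bases or more showed 1.86, 1.71, 1.77 and 1.85, with 210 of 359 higher and none lower. The rank correlation between length and log2 ratio over these genes was 0.58, 0.55, 0.55 and 0.57, a description across genes that share the same 4 pools of barcodes. The median longest transcript of the tested members was 3633.5 bases in the ER list, 2215.5 in the ER chaperone list, 5864 in the nuclear-retained list and 1076.5 in the ribosomal list. The part of length in the differences between lists was not tested.

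**Figure D4:**
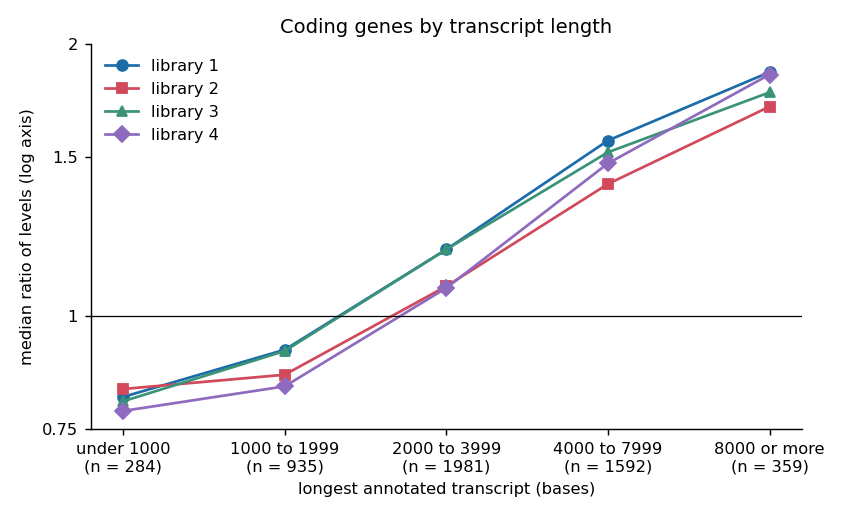
The median ratio of levels, low-depth high-mt barcodes over kept cells, is plotted on a log axis for coding genes outside the ribosomal list, grouped by the longest annotated transcript, with the number of genes under each group. In all 4 libraries the median lies below 1 in the 2 shortest groups and between 1.71 and 1.86 in the longest.

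Nuclear-encoded mitochondrial mRNAs did not follow the mitochondrial transcripts, whose share was used to choose the barcodes. The 78 tested subunits of the respiratory chain and ATP synthase held 4 higher genes (Cox4i1, Cox6a1, Ndufa9 and Ndufb9) and 3 lower genes (Atp5e, Cox7a2l and Sdhc), against 22.2% higher and 3.17% lower among all tested genes. Their summed level was 1.07-, 1.11-, 1.09- and 1.06-fold that of kept cells, a direction that turned when levels were set relative to the median gene, when mt- genes entered the total, and when ribosomal protein genes and Malat1 were left out of it. The median of the 78 genes was on both sides of 1, at 0.983, 1.04, 1.00 and 0.947. Cox6a1, a subunit of complex IV, took 462, 660, 451 and 682 CPM against 202, 230, 193 and 221, an increase of 2.29-, 2.87-, 2.34- and 3.09-fold. Atp5e, a small subunit of ATP synthase, had 161, 297, 213 and 382 against 357, 565, 434 and 757. Both directions were thus found among nuclear-encoded subunits. Taken relative to the median gene, 3 genes of the list were higher, without Cox4i1, and 8 were lower, against 12.9% and 9.85% of all tested genes, so that the share of lower genes was near that of all genes.

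Among 25 tested genes of mitochondrial import, matrix and maintenance, 4 were higher, among them Polg, Lonp1 and Twnk, a share below the 22.2% of all tested genes. Polg, the mitochondrial DNA polymerase, was 2.17- to 3.13-fold higher. The summed list had ratios of 1.04, 1.00, 1.10 and 0.981. Relative to the median gene 3 genes of the list were higher and 4 lower, against 12.9% and 9.85% of all tested genes.

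Stress and death lists were compared in the same way, beside 22.2% of all tested genes higher and 3.17% lower. None of 10 tested genes of the integrated stress response was called, and their summed level was 1796, 745, 1314 and 812 CPM against 1827, 774, 1334 and 831 in kept cells, with ratios between 0.963 and 0.985. Atf4, its central transcription factor, had ratios of 1.04, 1.05, 1.01 and 1.01. Of 8 tested heat shock genes only Dnajb1 was called, as lower. Of 7 tested genes of intrinsic apoptosis and 6 tested immediate early genes none was called. These 3 lists hold 12, 19 and 15 genes, and the others were below the level of 25 CPM and not tested. The absence of calls therefore does not cover the whole lists. Measured relative to the median gene, 1 gene was lower in each of the integrated stress response, apoptosis and immediate early lists, and 2 heat shock genes were, on a scale where 9.85% of all tested genes were lower. The summed apoptosis list had ratios of 0.863, 0.808, 0.885 and 0.808, and Bax, which permeabilises the outer mitochondrial membrane, had ratios of 0.657, 0.662, 0.760 and 0.643. The p53 list was lower in sum, by 1.08-, 1.12-, 1.18- and 1.12-fold, while the median of its 9 tested genes was 1.35, 1.00, 1.00 and 1.01 and Zmat3 and Trp53inp1 were higher. Relative to the median gene neither was called and 2 genes of the list were lower. Immediate early genes had ratios of 1.19, 0.989, 0.939 and 0.862, and heat shock genes 0.991, 1.02, 1.09 and 1.02.

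The barcodes held marker transcripts of embryonic stem cells, and the core pluripotency list stood in sum at about the level of kept cells, though single genes differed. Core pluripotency transcripts summed to 8209, 6183, 7584 and 5352 CPM, against 8376, 6271, 6785 and 5144 in kept cells, and 1 of the 8 genes, the co-receptor Tdgf1, was higher, by 1.72-, 1.68-, 1.78- and 1.82-fold. This share, and that of the naive and formative lists, was below the 22.2% of all tested genes that were higher. Relative to the median gene Tdgf1 was no longer called. Pou5f1, a core pluripotency factor, was not called but was lower in each library, with 705, 644, 631 and 563 CPM against 894, 828, 694 and 801. The naive list was higher in sum, by 1.27-, 1.05-, 1.51- and 1.11-fold, but its direction turned relative to the median gene and with mt- genes in the total, and only Nr5a2 of 9 genes was called, which was lost relative to the median gene. Formative genes, which mark the step after the naive state, stood at 258, 1003, 408 and 1566 CPM against 239, 871, 500 and 1400, and none was called.

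The libraries differed in these lists, and the low-depth high-mt barcodes followed the library they came from. Formative transcripts were lowest in library 1 and highest in library 4 in both classes, and the integrated stress response list was highest in library 1 and lowest in library 2 in both. Between libraries 1 and 4, 377 tested genes differed at least 2-fold in kept cells, and all 377 differed in the same direction in low-depth high-mt barcodes, 370 with an interval that excluded 1. For the other 5 pairs of libraries the same direction was found for 164 of 164, 61 of 63, 111 of 113, 57 of 57 and 134 of 135 genes. None differed in the opposite direction with an interval that excluded 1. The part of free RNA from other cells of the library in these values was not tested.

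Keratin and contractile transcripts, which in these libraries vary strongly between cells, were lower. Their sum was 201, 242, 446 and 377 CPM against 300, 343, 1760 and 846, a decrease of 1.496-, 1.42-, 3.94- and 2.25-fold. Tagln, an actin-binding protein of contractile cells, was lower in every library (2.50, 5.02, 50.2 and 18.5 CPM against 22.3, 15.7, 313 and 114), as were Krt8 and Krt18. Tpm1, an actin-binding tropomyosin, was not called, with ratios of 0.773, 0.717, 0.409 and 0.501.

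Except for the neural list, markers of other cell types were near 0 in low-depth high-mt barcodes. The fibroblast, primitive endoderm, trophectoderm and primed or streak lists added up to between 3.004 and 19.9 CPM in every library, and the neural list to between 36.0 and 71.1, most of it from Tubb3 and Pax6. In kept cells the same 4 lists summed to between 2.51 and 20.6 and the neural list to between 44.1 and 63.5. No UMI of the 7 blood genes was counted in low-depth high-mt barcodes. Their level in kept cells, 0.0949 to 0.185 CPM, was too low to be detectable at the depth of these sums. Cell cycle lists were slightly higher, S phase by 1.24-, 1.12-, 1.29- and 1.07-fold and G2/M by 1.07-, 1.04-, 1.07- and 1.12-fold. Both turned relative to the median gene and with mt- genes in the total, and G2/M also with ribosomal protein genes and Malat1 out of it. Of 14 G2/M genes Mki67 was higher and Ube2c lower, and relative to the median gene Mki67 was no longer called. Of 14 S phase genes none was called, against 22.2% of all tested genes higher and 3.17% lower.

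To compare single barcodes at the same depth, each was thinned to 500 nuclear-encoded UMIs, which left out 155, 9, 123 and 31 shallower low-depth high-mt barcodes and no kept cell. At this depth the median number of detected genes was 398, 395, 397 and 394 in low-depth high-mt barcodes and 355, 373, 362 and 372 in kept cells. The unthinned medians without mt- genes were 1058, 1414, 1265 and 1231 against 4056, 4588.5, 4202 and 4550. At least 1 UMI of the naive list was found in 70.6%, 53.4%, 62.7% and 37.2% of low-depth high-mt barcodes, against 63.1%, 53.1%, 50.3% and 33.2% of kept cells. The exact intervals were apart in libraries 1, 3 and 4 and overlapped in library 2. Without thinning these shares were 84.5%, 86.2%, 82.5% and 69.8% against 99.9%, 99.5%, 99.2% and 97.6%. Over 7 lists (naive, formative and core pluripotency, keratin and contractile, integrated stress response, S phase and G2/M) and 4 libraries the share was higher in low-depth high-mt barcodes in 14 of 28 pairs. It was higher in 22 of 28 when barcodes were thinned to 1000 UMIs. That depth left out 330, 396, 307 and 367 low-depth high-mt barcodes and no kept cell.

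Keratin and contractile UMIs were spread differently over barcodes. At 500 UMIs the list was detected in 9.09%, 10.6%, 15.2% and 17.6% of low-depth high-mt barcodes and in 9.74%, 13.6%, 22.7% and 24.2% of kept cells. The ratio of variance to mean of its UMIs per barcode was 1.06, 1.19, 2.46 and 1.07 in low-depth high-mt barcodes, where 1 is the value for counts scattered at random, and 3.47, 1.86, 7.75 and 3.30 in kept cells. Low-depth low-mt barcodes had ratios of 7.46, 2.14, 6.53 and 2.33. At 1000 UMIs the ratio in low-depth high-mt barcodes was 2.70, 1.26, 5.49 and 1.22, against 5.38, 2.85, 14.9 and 5.39 in kept cells. The mean number of these UMIs was also lower in low-depth high-mt barcodes.

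For nuclear-retained RNA the opposite held, and the low-depth high-mt barcodes varied far more than kept cells. The ratio of variance to mean was 10.97, 10.8, 12.2 and 14.5, against 1.96, 2.05, 2.18 and 2.70. They averaged 12.4, 9.17, 11.4 and 11.8 nuclear-retained UMIs of 500, yet 4.18%, 9.002%, 4.58% and 8.31% had none, where random scatter around these means would leave at most 0.0104% without any. Kept cells averaged 3.08, 3.13, 3.18 and 3.78 UMIs, and 10.1%, 9.23%, 10.2% and 8.01% had none. In low-depth high-mt barcodes without such a UMI, ribosomal protein transcripts made up 23.2%, 29.6%, 26.1% and 29.8% of the 500 UMIs, compared with 20.2%, 22.0%, 20.4% and 21.8% in those with at least 1. In kept cells with and without such a UMI they made up 28.4% to 33.1%. The low-depth high-mt barcodes without such a UMI numbered 34, 185, 45 and 130. Before thinning their median depth was 1908, 1281, 1586 and 1516.5 UMIs, against 3015.5, 3368, 3289 and 2761.5 in those with at least 1. The part of depth in this difference was not tested. Low-depth low-mt barcodes varied more still, with ratios of variance to mean of 19.9, 19.5, 22.9 and 23.5, and they averaged 8.22, 8.43, 8.30 and 10.1 such UMIs of 500. The mean number of these UMIs was also higher in low-depth high-mt barcodes than in kept cells. Most of the list was Malat1. Before thinning it gave 37.5, 44.1, 39.6 and 50.3 of the 43.9, 54.5, 47.6 and 61.0 list UMIs per low-depth high-mt barcode.

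**Figure D5:**
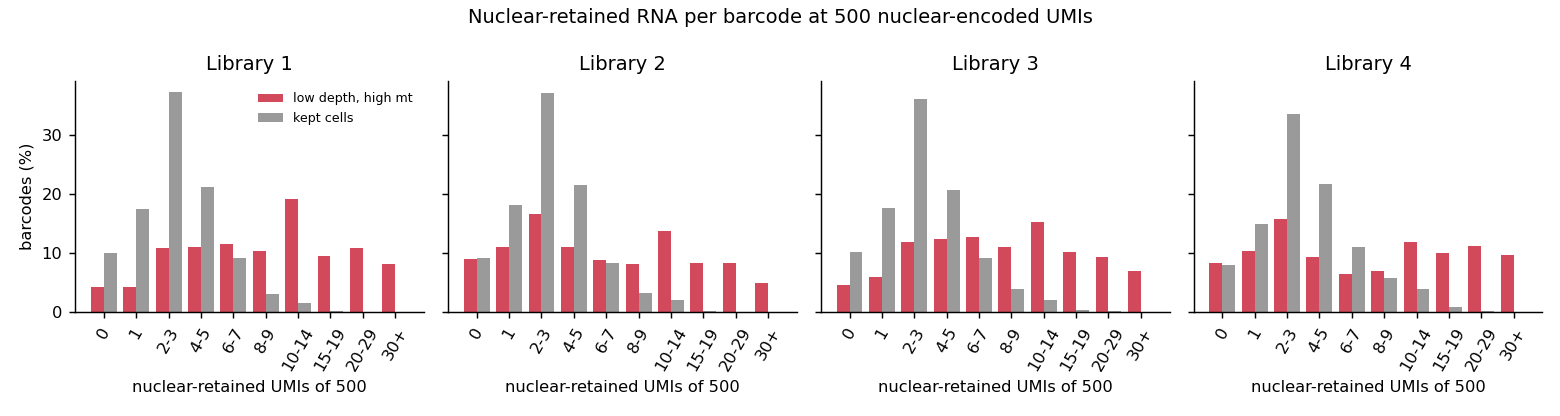
Bars give the percentage of barcodes by the number of nuclear-retained UMIs among 500 nuclear-encoded UMIs, with unequal bin widths, for low-depth high-mt barcodes (red) and kept cells (grey) in each library. Kept cells peak at 2 to 3 UMIs. Low-depth high-mt barcodes have their tallest bar there in libraries 2 and 4, and at 10 to under 15 in libraries 1 and 3. In every bin from 10 UMIs upward they have the larger share.

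Malat1 levels within the class varied with depth and mt- share, and the libraries differed in this. In libraries 2 and 4, barcodes with at most 1000 UMIs (262 and 261) had a Malat1 level of 2398 and 3237 CPM, below kept cells of the same library, and a ribosomal protein level of 331228 and 318375, above them. Barcodes of these libraries with more than 3000 UMIs had 19287 and 26487 for Malat1. In libraries 1 and 3 the shallow barcodes (166 and 186) retained Malat1 at 17356 and 15687, against 17187 and 15843 above 3000 UMIs. The rRNA-overlapping transcripts were highest in the shallow barcodes of every library, at 19896, 25180, 18926 and 35055 CPM, and fell with depth to 5084, 9348, 4445 and 10766 above 3000 UMIs.

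The Malat1 level also varied along the mt- share. Bins of higher mt- share were mostly also shallower. In library 1 their median depth was 4527.5, 2932, 1673 and 1215 UMIs from the lowest to the highest. Depth and mt- share were not separated here. In libraries 1 and 3 Malat1 took 13704 and 14574 CPM in barcodes with 10% to 20% mt-, and 21708 and 19742 with 20% to 40%. Above 60% (71 and 29 barcodes) it took 3547 and 4908, below kept cells in library 1 and above them in library 3. Ribosomal protein transcripts in these bins stood at 298013 and 285714, which is near their level in kept cells. In libraries 2 and 4 the Malat1 level was 4708 and 3220 already between 40% and 60% (86 and 50 barcodes), against 19204 and 23189 between 20% and 40% and 16823 and 24195 between 10% and 20%. Between 40% and 60% this was above kept cells in library 2 and below them in library 4. From the lowest to the highest bin the Malat1 level fell at each step in library 4 only. The ER list lay between 6692 and 9874 CPM in every bin of the mt- share, above the 3672 to 4106 of kept cells. In barcodes with at most 1000 UMIs it stood at 9934, 3776, 7059 and 4301, which in library 2 was not above kept cells (3874).

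Low-depth low-mt barcodes met the same depth limits, but their median depth was 3427, 1235, 3516 and 1357 UMIs, above that of low-depth high-mt barcodes in libraries 1 and 3 and below it in libraries 2 and 4. Against them, 179 of 5463 tested genes (3.28%) were higher and 18 (0.329%) lower in low-depth high-mt barcodes. Relative to the median gene these counts were 51 (0.934%) and 60 (1.1%). Without library 2 they were 494 and 57, and without library 4 the lower genes numbered 29. Of the 179 higher genes, 34 passed the level of 25 CPM only through low-depth high-mt barcodes. The genes with the largest smallest increase were Nup210, Sptbn1, which encodes a spectrin of the membrane skeleton, Iars2, the mitochondrial isoleucyl-tRNA synthetase, and Gldc, a subunit of the glycine cleavage system in the mitochondrial matrix. Iars2 took 102, 119, 103 and 137 CPM against 46.4, 47.2, 47.5 and 61.7. The rest of the 12 were Esyt1, Epha4, Slfn9, Ly75, Cox6a1, Zfp871, Cemip2 and Itpr1. Of the ER lists, 11 of 32 membrane and secreted genes and 5 of 10 chaperones were higher, and relative to the median gene 6 and 0 were. None of the 13 nuclear-retained RNAs and none of the 18 speckle and splicing genes was called, and the summed nuclear-retained list was 2.18-, 1.13-, 1.89- and 1.31-fold higher.

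Of the genes lower than in low-depth low-mt barcodes, Acta2, Tagln, Cystm1 and Krt18 were under 25 CPM on average in low-depth high-mt barcodes and passed the level only through the other class. Of 7 tested keratin and contractile genes 3 were lower (Acta2, Tagln and Krt18), against 0.329% of all tested genes. Acta2, smooth muscle actin, had 0, 0, 57 and 2 UMIs in low-depth high-mt barcodes, against 37, 49, 430 and 54 in low-depth low-mt barcodes. Tagln had 5, 26, 130 and 63 UMIs against 132, 52, 815 and 221. Krt18, a keratin of simple epithelia, and S100a6 were also lower, with levels of 148, 15.5, 174 and 63.6 CPM for Krt18 in low-depth low-mt barcodes and 9.01, 8.88, 27.0 and 28.1 in low-depth high-mt barcodes. The keratin and contractile list as a whole stood at 885, 329, 1894 and 788 CPM in low-depth low-mt barcodes. The remaining named genes were Cystm1, Gm26917, Hist1h1e, Crip2, Actg1, Tagln2, Rps12 and Txnl4a. The ribosomal protein list was lower in sum by 1.46-, 1.22-, 1.46- and 1.28-fold.

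Good-depth high-mt cells also had an mt- share above 10%, but their median share was 11.1%, 13.6%, 12.8% and 13.8%, below that of low-depth high-mt barcodes in every library. Against them, 12 of 5515 tested genes (0.218%) were higher and 0 (0%) were lower. This class held as few as 59 cells in library 1. The 12 were Gm26917, Gm42418, Plxna1, Tab2, St14, Xndc1, Dgkh, Dnajc1, Zranb3, Igsf3, Ankrd12 and Styx. Of these, 6 (Plxna1, Xndc1, Dnajc1, Zranb3, Igsf3 and Styx) passed the level of 25 CPM only through low-depth high-mt barcodes. Gm42418 took 2099, 5222, 2965 and 6656 CPM in good-depth high-mt cells, between its levels in kept cells and in low-depth high-mt barcodes in every library. Without library 2, 3 or 4 the higher genes numbered 37, 21 and 31, without library 2 there were 2 lower genes, and relative to the median gene there were 4 higher (0.0725%) and 0 lower (0%) genes. In libraries 2 and 4 the ribosomal protein list stood at 210750 and 208634 CPM in good-depth high-mt cells, against 205385 and 204380 in low-depth high-mt barcodes. In libraries 1 and 3 it stood at 304380 and 267431, against 216172 and 211436. The nuclear-retained list was 2.14-, 1.17-, 1.71- and 1.11-fold higher in low-depth high-mt barcodes than in good-depth high-mt cells.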

How the data were processed

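Counts of UMIs per gene and barcode were used as deposited: the authors aligned each library to mm10 with Cell Ranger 6.1.2 and joined the 4 libraries into 1 matrix of 32285 genes and 41142 barcodes (744302782 UMIs) with a step that equalises depth between libraries. Their cell filter had not been applied to this matrix. Barcodes were split into 4 classes by the rule in the text, and counts were summed per class and library. Levels are counts per 1000000 UMIs without mt- genes (CPM). Ratios have exact 95% intervals (Clopper-Pearson on the counts of both classes), shares exact binomial ones. The call rule (1.5-fold, level of at least 25, all 4 libraries) was tested on simulated data. Genes eligible to be named were at most 12 called in each direction, those with the largest smallest change over libraries. Ribosomal protein genes beyond the first 3 were skipped. The 4 most abundant genes of each list and Srrm2 were also eligible. Not all eligible genes are given in the text, so those given need not represent their lists. Other called genes named from the lists were chosen after their values were seen. The classes, the 30 gene lists and the comparisons were chosen with earlier results of these data known. Thinning drew UMIs without replacement. Gene positions and transcript lengths are from GENCODE M21, in which 32158 of the 32285 genes were matched by identifier. No doublets were called. Python 3.11.15, numpy 2.4.6, scipy 1.17.1 and pandas 2.3.3 were used. Some genes are not reported here.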

Additional observations from a re-analysis of the deposited data

How the results depend on the processing

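The number of low-depth high-mt barcodes was 3171 with an mt- limit of 20%, and within 1.5 times 5734 under the other limits tried. Genes higher and lower than in kept cells numbered 483 and 641 with mt- genes in the total, and 683 and 523 with size factors set by the median gene. They numbered 460 and 16 at 2-fold, and 264 and 108 at a level of at least 100. The higher genes numbered 2014 at a level of at least 10 and 2580 without a filter, and the lower genes 389 with ribosomal protein genes and Malat1 out of the total. Leaving out each library gave 1208 to 1284 higher and 173 to 217 lower genes. No gene called against kept cells was called in the opposite direction under any of these alternatives. Of 30 lists, 9 were higher and 8 lower in all libraries with every interval off 1. These were 5 and 16 with mt- genes in the total, 5 and 14 with size factors, and 5 higher with ribosomal protein genes and Malat1 left out. Median log2 ratios turned to -0.093 (naive), -0.11 (S phase), -0.22 (G2/M) and -0.20 (respiratory chain) with mt- genes in the total, to -0.0062, -0.015, -0.16 and -0.14 with size factors, and to -0.059 (G2/M) and -0.043 (respiratory chain) with ribosomal protein genes and Malat1 left out. The formative, core pluripotency, heat shock and mitochondrial import medians, positive in the main comparison, also turned negative under each of these scalings. Against low-depth low-mt barcodes, size factors gave 51 higher and 60 lower genes, and leaving out each library 198 to 494 and 19 to 57. Against good-depth high-mt cells, size factors gave 4 higher genes, and leaving out each library 17 to 37 higher and 0 to 2 lower genes. The share with a UMI was higher in low-depth high-mt barcodes in 22 of 28 pairs when thinned to 1000 UMIs and in 0 without thinning. The size factors and left-out libraries of these last 2 comparisons, the removal of barcodes shared by libraries (5698 left) and a minimum of 1000 nuclear-encoded UMIs were alternatives chosen after seeing the data. No paired analysis was possible because the library numbers carry no replicate number of the labelled groups, while classes were always compared within a library. Calls within libraries rest on counting error alone, and low-depth high-mt barcodes held the fewest UMIs in library 1.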

Other observations

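Some gene families, picked by symbol after the values were seen, stood out among the genes higher in low-depth high-mt barcodes than in kept cells, where 22.2% of all tested genes were called higher. Of 51 tested solute carriers, 37 (72.5%) were higher and 1 was lower, and 18 of 48 Tmem genes (37.5%) were higher and none lower. Lifr, a subunit of the receptor for LIF, the cytokine in the medium, took 87.1, 88.2, 73.0 and 89.7 CPM in libraries 1 to 4 against 29.2, 28.9, 24.1 and 22.6, and was among the higher genes. The other subunit, Il6st, took 93.1, 76.1, 72.6 and 63.0 against 24.2, 24.5, 19.1 and 15.2, and passed the level of 25 CPM only through low-depth high-mt barcodes. Of 77 zinc finger genes with Zfp symbols, 34 (44.2%) were higher and none lower. Against low-depth low-mt barcodes, where 3.28% of all tested genes were higher, 13 of 55 solute carriers (23.6%), 2 of 51 Tmem genes (3.92%) and 4 of 85 Zfp genes (4.71%) were.

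Of 7 tested mitochondrial aminoacyl-tRNA synthetases 3 were higher (Iars2, Tars2 and Lars2), and of the 19 cytosolic ones none was called. The 78 mitochondrial ribosomal proteins held 6 lower and no higher genes, with a median ratio of 0.848, 0.813, 0.859 and 0.792, and the 34 tested proteasome subunits held 1 lower and no higher gene. Of all tested genes 22.2% were higher and 3.17% lower.

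Two-cell-like transcripts numbered 28, 3, 8 and 15 UMIs in low-depth high-mt barcodes and came from 2, 2, 1 and 3 barcodes, with 24 of the 28 UMIs of library 1 on a single barcode. In low-depth low-mt barcodes they numbered 57, 1, 76 and 1 UMIs on 4, 1, 12 and 1 barcodes.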
